A study of Mus musculus with 18 samples.

Results

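The genes described are 10 transcription factor genes of early adipogenesis, taken by symbol and not by any measured value: Cebpa, Cebpb, Cebpd and Cebpg of the C/EBP family, Ebf1, Ebf2 and Ebf3 of the early B cell factor family, and the zinc finger genes Zfp423, Zfp521 and Prdm16. They are 10 of the 54532 genes in the count table, and 9 of them passed the filter on low counts and could be tested. Prdm16 did not pass and is given by its counts. Libraries came from mouse 10T1/2 cells, an embryonic mesenchymal stem cell line that can become adipocytes. The 6 groups of 3 libraries were WT cells and the cells labelled FOXS1 KO clone 1 and FOXS1 KO clone 2, each kept uninduced or given TGF-β1 (1 nM, 12 h) and after it the adipogenic cocktail DMII (48 h). DMII holds dexamethasone, the phosphodiesterase inhibitor 3-isobutyl-1-methylxanthine, insulin and indomethacin. All stimulated cells received both TGF-β1 and DMII, so the effects of these agents cannot be told apart. FOXS1 KO cells were made with CRISPR-Cas9, and each KO genotype is 1 clone, so an effect of the edit and a trait of the clone cannot be told apart within it.

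Adipogenesis runs as a relay of transcription factors. C/EBPβ and C/EBPδ are induced within hours of an adipogenic stimulus, dexamethasone and agents that raise cAMP being their classical inducers, and they switch on PPARγ and C/EBPα, which hold each other on and drive the genes of the mature fat cell. EBF proteins and ZFP423 act upstream and mark committed preadipocytes, ZFP521 antagonizes ZFP423 and EBF1, and PRDM16 with EBF2 is known for the brown and beige fat programme. TGF-β signaling is a known inhibitor of this relay.

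The sequences upstream of 3 members are shown because Cebpb, Cebpa and Ebf1 gave the 3 contrasting patterns described below. They are RefSeq windows of build GRCm38.p6, plus strand, from 250 bases before to 50 bases after an annotated start, and 7 of the 10 members had such an entry (all but Cebpd, Ebf2 and Zfp521). The Cebpb window is chr2:167688665-167688964, the Cebpa window is chr7:35119043-35119342 and the Ebf1 window is chr11:44617850-44618149. Capitals mark TGACG on either strand (the core of the cAMP response element, written CGTCA where it lies on the other strand) and TATAAA in Cebpb, TATAAA in Cebpa, and GTAAAC on either strand (a forkhead core, written GTTTAC on the other strand) in Ebf1.
Cebpb: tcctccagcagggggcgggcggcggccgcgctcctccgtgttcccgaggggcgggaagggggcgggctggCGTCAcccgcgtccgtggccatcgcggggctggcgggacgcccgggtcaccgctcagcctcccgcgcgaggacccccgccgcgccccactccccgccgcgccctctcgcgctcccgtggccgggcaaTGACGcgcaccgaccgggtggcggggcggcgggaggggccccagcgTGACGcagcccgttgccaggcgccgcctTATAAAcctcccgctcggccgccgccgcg
Cebpa: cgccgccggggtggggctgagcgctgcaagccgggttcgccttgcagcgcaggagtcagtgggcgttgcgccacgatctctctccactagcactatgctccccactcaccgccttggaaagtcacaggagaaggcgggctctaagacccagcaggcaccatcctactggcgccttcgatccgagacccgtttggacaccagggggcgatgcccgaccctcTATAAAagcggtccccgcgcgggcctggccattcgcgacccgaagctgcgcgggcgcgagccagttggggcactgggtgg
Ebf1: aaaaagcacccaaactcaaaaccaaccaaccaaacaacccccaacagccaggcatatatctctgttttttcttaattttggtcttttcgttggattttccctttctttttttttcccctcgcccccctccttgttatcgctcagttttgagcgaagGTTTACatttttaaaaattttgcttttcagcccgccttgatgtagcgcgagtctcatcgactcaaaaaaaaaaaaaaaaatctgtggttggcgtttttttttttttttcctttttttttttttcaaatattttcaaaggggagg
The Cebpb window held TGACG at 3 places, starting at positions -180, -53 and -7 from the start, and TATAAA at position 22. The Cebpa window held TATAAA at position -30 and no TGACG, and the Ebf1 window shown held GTAAAC at position -94. Ebf1 had another RefSeq window, starting at base 44619978, with no GTAAAC and with TGACG at position 23. TGACG was also found in the window of Ebf3, at positions -140 and -44, a gene whose response did not pass the test in any genotype. Of 32851 mouse promoter windows of this length, 20.8% held TGACG, 13.6% held TATAAA and 7.89% held GTAAAC on either strand. CAGAC, the core of the SMAD binding element, was absent from all 9 windows of the 7 members and present in 49.6% of all windows. These matches describe letters in a window, and no binding was measured.

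Foxs1, the targeted forkhead gene, was counted in every library. Uninduced WT libraries held 1.81, 3.25 and 1.64 CPM (counts scaled to TMM library size) and stimulated WT libraries 3.13, 2.55 and 1.85. The libraries labelled FOXS1 KO held between 21.1 and 27.1 CPM uninduced and between 38.0 and 56.8 CPM stimulated, so Foxs1 RNA was higher, not lower, under the KO labels (log2 fold change 3.55 for clone 1 and 3.36 for clone 2 uninduced, adjusted p = 2.39e-17 and 7.65e-17). A total per gene does not show a small edit. The study reports that sequencing found the targeted locus disrupted. On its western blot, by the authors' account, neither clone retained FOXS1 expression. Those data were not analysed here, and the counts do not test the knockout. Within the counts, the genotypes and every direction below therefore rest on the labels, and clone 1 and clone 2 stand for the libraries labelled in that way. Library totals ran from 15576685 to 42005596 counts. All 7 mesenchymal markers checked were counted in every group, and their summed level, mostly Col1a1 and Vim, was 16778 to 45903 CPM. Single markers differed between genotypes: Thy1 held 59.6 CPM in uninduced WT, 184 in clone 1 and 0.616 in clone 2 (49.0, 161 and 0.342 stimulated), and Pdgfra was a DEG below WT in both clones in either treatment. Their part in the results below was not tested. In addition, the summed level of the 3 immune markers did not pass 1.45 CPM in any library. The sums of 3 endothelial and 3 skeletal muscle markers did not pass 1.63 and 0.133 CPM. The sum of 3 epithelial markers was highest in uninduced clone 2, at 2.81 to 3.41 CPM, where Cdh1 was a DEG above WT.

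Here the word DEG means an edgeR quasi-likelihood Benjamini-Hochberg adjusted p below 0.05 over the 14317 genes tested together with an absolute log2 fold change above 1, and rose and fell are used of DEGs. Nothing in the labels says that the 3 libraries of a group are separate cultures, so p-values measure the spread between these libraries. In bulk RNA, fewer cells expressing a gene and less RNA per cell cannot be told apart.

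**Figure D1:**
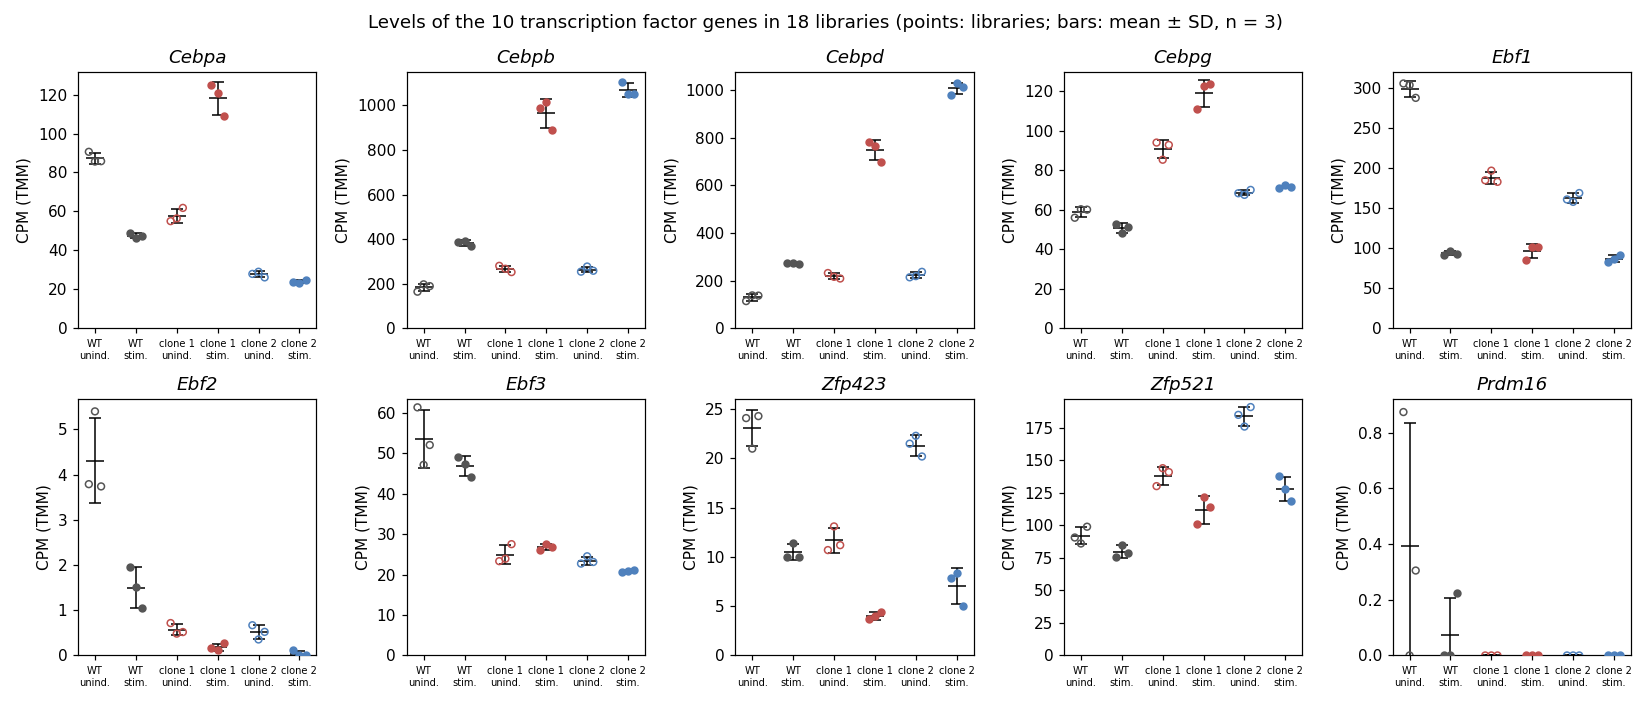
Levels of the 10 genes in CPM on linear axes that start at 0. Open circles are uninduced and filled circles stimulated libraries, in grey for WT, red for clone 1 and blue for clone 2, and bars give the mean ± SD of 3 libraries. Cebpb and Cebpd climb under stimulation in each genotype and highest in the clones, Cebpa reaches 125 CPM in clone 1 and stays below 30 CPM in clone 2, and Ebf2 and Prdm16 lie near 0 in both clones.

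The first question was how the early C/EBP genes responded to TGF-β1 + DMII. Cebpb and Cebpd rose in WT cells and in both clones, and stimulated cells of both clones carried 2.52 to 3.70 times as much of each as stimulated WT cells. Across all 10 genes, 5 of the 9 tested were DEGs in the WT response, 5 in the clone 1 response and 4 in the clone 2 response, where 19.9%, 16.7% and 17.7% of all tested genes were DEGs. In stimulated cells 6 were DEGs between clone 1 and WT and 4 between clone 2 and WT, against 19.0% and 16.9% of all genes. In WT 2 members rose and 3 fell, where 6.25% and 13.6% of all genes did. In stimulated clone 1 cells 4 were higher and 2 lower than in WT (9.42% and 9.60% of all genes), and in clone 2 cells 2 were higher and 2 lower (7.95% and 8.94%). By the adjusted p alone, with no fold threshold, 8, 8 and 7 members passed in the WT, clone 1 and clone 2 responses, as 60.7%, 54.5% and 55.8% of all genes did. By that rule 9 and 8 passed in uninduced clone 1 and clone 2 against WT (53.5% and 53.2% of all genes) and 8 in each stimulated comparison (58.9% and 56.0%). In the response differences from WT 5 and 6 passed (31.6% and 31.2%), between the clones 5 uninduced and 8 stimulated (42.2% and 45.4%), and in the response difference of the clones 3 (14.5%). These shares describe the list and were not tested against each other.

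Cebpb, an intronless gene at chr2:167688915-167690418 (GRCm38), encodes C/EBPβ. Uninduced WT libraries held 164, 197 and 189 CPM and stimulated WT libraries 386, 393 and 368 CPM. In clone 1 the levels were 280.1, 267 and 252 CPM uninduced and 988, 1016 and 891 CPM stimulated, and in clone 2 they were 254, 277 and 258 CPM uninduced and 1104, 1051 and 1051 CPM stimulated. Every stimulated library lay above every uninduced library of any genotype, and every stimulated clone library lay above every stimulated WT library. The response was a log2 fold change of 1.06 ± 0.0583 (SE) in WT, 1.86 ± 0.0587 in clone 1 and 2.02 ± 0.0589 in clone 2 (adjusted p = 2.01e-15, 4.86e-21 and 6.06e-22, edgeR). The WT rise was close to the fold threshold and was 0.99 without the first uninduced WT library (replicate 1), which had the lowest level of its group. In stimulated cells Cebpb was higher in clone 1 by 1.34 ± 0.0576 and in clone 2 by 1.48 ± 0.0578 on the log2 scale (adjusted p = 7.3e-18 and 7.34e-19). The difference in response itself was 0.80 for clone 1 and 0.96 for clone 2 (adjusted p = 5.04e-09 and 1.29e-10), both under the fold threshold of 1, and the clone 2 value was 1.03 without that WT library.

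Cebpd, at chr16:15887286-15891031, encodes C/EBPδ. WT libraries held 114, 138 and 137 CPM uninduced and 273, 275 and 268 CPM stimulated. Clone 1 libraries held 232, 216 and 209 CPM uninduced and 781, 766 and 699 CPM stimulated, and clone 2 libraries 214, 219 and 237 CPM uninduced and 982, 1029 and 1012 CPM stimulated. The 3 stimulated groups did not overlap each other, with WT lowest and clone 2 highest. The response was 1.07 ± 0.0602 in WT (0.98 without the first uninduced WT library), 1.77 ± 0.0600 in clone 1 and 2.18 ± 0.0605 in clone 2 (adjusted p = 4.11e-15, 3.02e-20 and 2.69e-22). Cebpd in clone 2 was the only C/EBP gene besides Cebpa in clone 1 whose response differed from that of WT past both thresholds, by 1.11 ± 0.0836 (adjusted p = 1.35e-11). For clone 1 the difference was 0.70 ± 0.0837 (adjusted p = 9.27e-08). The difference in response between clone 2 and clone 1 was 0.40 ± 0.0826 (adjusted p = 0.000752). In response differences, 8.81% of all genes were DEGs for clone 1 and 7.85% for clone 2, and 1 of the 9 members was a DEG in each.

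Both genes already lay higher in uninduced clones, below the fold threshold. Cebpb differed from WT by 0.54 in clone 1 and 0.52 in clone 2, and Cebpd by 0.76 and 0.78 (adjusted p from 6.57e-12 to 1.12e-08). Among genes with a mean of 5 CPM or more, the median difference over the 336 on chromosome 16, where Cebpd lies, was 0.39 in uninduced and 0.42 in stimulated clone 2 against WT, 0.12 and 0.13 in clone 1, and 0.26 between the clones in either treatment. Over the 801 on chromosome 2, where Cebpb lies, it was 0.19 and 0.15 in clone 1 and -0.04 in both treatments in clone 2. The part of these shifts in the Cebpb and Cebpd values was not tested. The uninduced clones did not differ detectably from each other, with a log2 difference of -0.02 ± 0.0576 for Cebpb and 0.03 ± 0.0591 for Cebpd.

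Both genes share exonic bases with a gene on the opposite strand, and the strand setting of the counting is not given in the sources used here. For Cebpb 20.7% of the exonic bases lie under Tmem189, whose level moved little, by -0.32, -0.31 and -0.32 on the log2 scale in the WT, clone 1 and clone 2 responses. For Cebpd 15% lie under Spidr, a DNA repair gene whose response was 0.71 in WT, 2.00 in clone 1 and 2.13 in clone 2. Without the strand setting it is not known whether reads from Cebpd and Spidr in the shared stretch were told apart. A part of Spidr reads in the Cebpd values, or of Cebpd reads in the Spidr values, was not tested. Spidr itself reached 167 CPM in stimulated clone 2, where Cebpd stood at 1008 CPM.

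**Figure D2:**
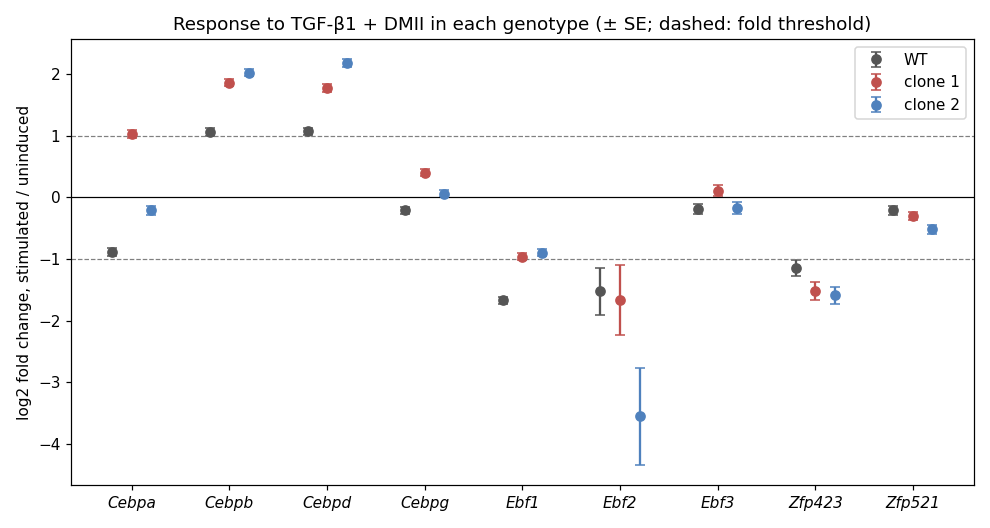
Response to TGF-β1 + DMII as log2 fold change of stimulated over uninduced cells, with SE bars, for the 9 tested genes in WT (grey), clone 1 (red) and clone 2 (blue), and the fold threshold dashed at 1 and -1. Cebpa goes down in WT at -0.88, up in clone 1 at 1.03 and to -0.21 in clone 2, whereas Cebpb, Cebpd and Zfp423 keep 1 direction in each genotype.

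Cebpa followed no such common course. It encodes C/EBPα, the late C/EBP factor that works with PPARγ, and lies at chr7:35119293-35121928. WT libraries held 90.6, 85.6 and 85.8 CPM uninduced and 48.8, 46.5 and 47.5 CPM stimulated. Clone 1 libraries held 55.0, 56.4 and 61.8 CPM uninduced and 125, 121 and 109 CPM stimulated. Clone 2 libraries held 27.9, 29.0 and 26.1 CPM uninduced and 23.8, 23.3 and 24.8 CPM stimulated. No 2 of the 6 groups overlapped: stimulated clone 1 was highest, uninduced WT followed, and both clone 2 groups lay lowest.

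The response of Cebpa was -0.88 ± 0.0642 in WT (adjusted p = 6.81e-13, below the fold threshold), 1.03 ± 0.0634 in clone 1 (adjusted p = 1.31e-14) and -0.21 ± 0.0722 in clone 2 (adjusted p = 0.0147). The clone 1 rise passed the fold threshold narrowly and was at 0.9995, under it, without the first uninduced clone 1 library. The response of clone 1 exceeded that of WT by 1.91 ± 0.0902 (adjusted p = 1.14e-16), and that of clone 2 by 0.67 ± 0.0966 (adjusted p = 2.25e-06), the latter under the fold threshold. The responses of the clones also differed from each other, by -1.24 ± 0.0959 for clone 2 against clone 1 (adjusted p = 7.12e-11). For this comparison, which was added after the data were seen, 3.02% of all tested genes were DEGs. Of the 9 members tested, Cebpa was the 1 called.

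In stimulated cells Cebpa therefore stood on opposite sides of WT in the clones, at 1.31 ± 0.0638 in clone 1 (adjusted p = 4.26e-17, a DEG) and -0.99 ± 0.0706 in clone 2 (adjusted p = 4.47e-13, just under the fold threshold). The clone 2 value passed the threshold at -1.0038 without the second stimulated WT library and at -1.01 without the third stimulated clone 2 library. Before stimulation the difference from WT was -0.60 ± 0.0638 in clone 1, under the fold threshold, and -1.66 ± 0.0663 in clone 2, a DEG (adjusted p = 6.66e-19). Clone 2 was lower than clone 1 both uninduced (-1.06 ± 0.0671) and stimulated (-2.30 ± 0.0693, adjusted p = 2.36e-21). Between the clones 8.67% of all genes were DEGs uninduced and 9.98% stimulated, and Cebpa was the 1 member called in each.

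Some mature adipocyte markers moved beside Cebpa in clone 1. The summed level of 9 such genes (Adipoq, Plin1, Cidec, Fabp4, Lpl, Cd36, Lep, Retn and Slc2a4) was 30.6 to 35.4 CPM in uninduced and 4.30 to 4.97 CPM in stimulated WT libraries. It went from 1.38 to 2.74 CPM up to 31.9 to 44.4 CPM in clone 1 and was 7.17 to 8.99 CPM and then 6.19 to 8.43 CPM in clone 2. Different genes carried the sum in different groups. In uninduced WT it was mostly Lpl, the lipoprotein lipase gene, at 31.6 ± 2.77 CPM, which was 0.216 ± 0.213 CPM in stimulated clone 1. There Fabp4 (20.4 ± 4.37 CPM), Plin1 (7.78 ± 1.71) and Cidec (7.56 ± 1.03) carried it. Adipoq, which encodes adiponectin, stayed low, at 0.207 ± 0.145 CPM in stimulated and 0.193 ± 0.0838 in uninduced clone 1, 0.596 ± 0.558 in uninduced WT and 0.954 ± 0.0434 in uninduced clone 2. Lep and Retn were at 0 in every group. Their part in the Cebpa result was not tested.

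Cebpg encodes C/EBPγ, a C/EBP without a transactivation domain that pairs with the other family members, and it lies 62.7 kb from Cebpa on the opposite strand (chr7:35046422-35056573). Its WT libraries held 56.0, 60.3 and 60.1 CPM uninduced and 53.0, 48.1 and 51.4 CPM stimulated. In clone 1 the levels were 94.1, 85.4 and 92.9 CPM uninduced and 111, 123 and 124 CPM stimulated, and all clone 2 libraries lay between 67.6 and 72.4 CPM. Clone 1 lay above clone 2 and clone 2 above WT in both treatments without overlap. Cebpg was a DEG between clone 1 and WT in stimulated cells alone (1.23 ± 0.0587, adjusted p = 2.59e-17). In clone 2 it differed by 0.50 ± 0.0601 there, and its responses were -0.21, 0.40 and 0.06 in WT, clone 1 and clone 2, all under the fold threshold.

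Scaled by listed gene length, the 4 C/EBP genes summed to 184, 211 and 205 CPM per kb in the uninduced WT libraries and to 354 ± 9.35 (SD, n = 3) in stimulated WT. The sum went from 274 ± 11.3 to 908 ± 57.1 in clone 1 and from 257 ± 8.18 to 1002 ± 14.5 in clone 2. Cebpb was the most abundant member in each group, with 60.9% to 71.8% of the sum, and Cebpd came after it in each, although in uninduced WT libraries its range overlapped that of Cebpa. The share of Cebpa was 16.6% ± 1.77 in uninduced WT and 5.10% ± 0.189 in stimulated WT. It was 8.02% ± 0.808 and 4.94% ± 0.138 in clone 1, and 4.08% ± 0.207 and 0.908% ± 0.0370 in clone 2.

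Relative to Cebpb, Cebpa thus stood at 0.0710 ± 0.00320 in stimulated WT and 0.0699 ± 0.00232 in stimulated clone 1, groups whose ranges overlapped although their Cebpa levels did not. In stimulated clone 2 the ratio was 0.0128 ± 0.000618. The ratio of Cebpd to Cebpb varied less, between group means of 0.284 and 0.379.

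**Figure D3:**
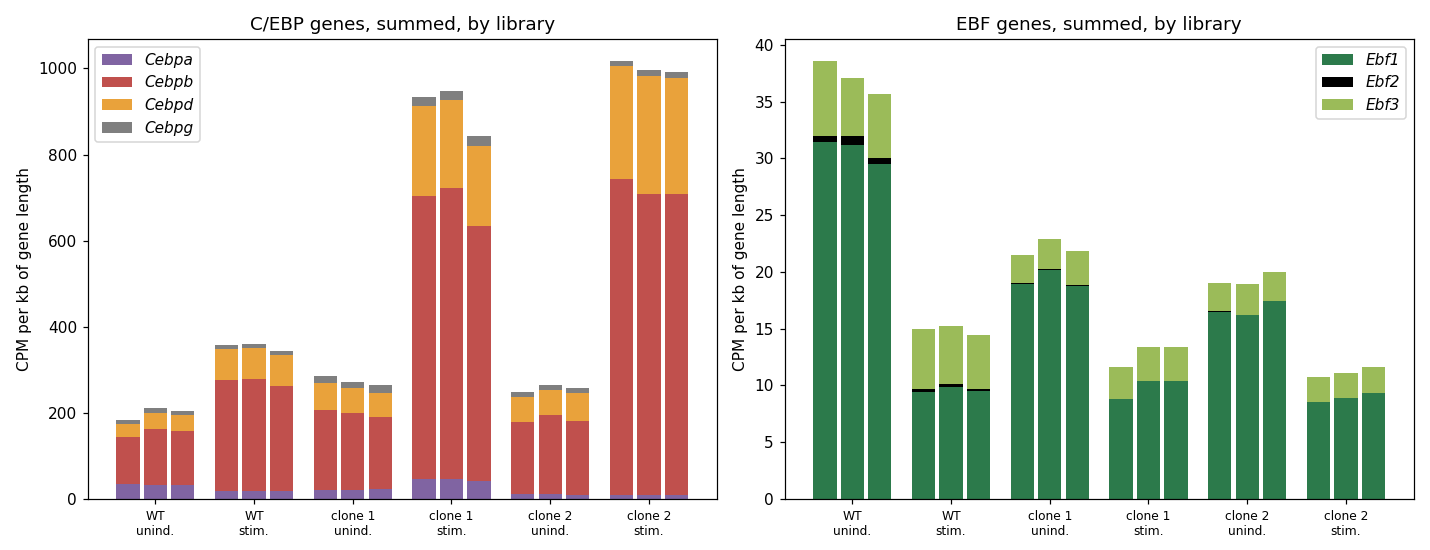
Stacked levels of the 4 C/EBP genes (left) and the 3 EBF genes (right) in each of the 18 libraries, in CPM per kb of listed gene length, from 0. The C/EBP sum is highest in the stimulated clones, near 908 in clone 1 and 1002 in clone 2, with Cebpa a thin layer in clone 2, while the EBF sum is highest in uninduced WT at 37.1 and its Ebf2 layer is widest in WT.

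The 3 EBF genes differed in course. Ebf2 was lower in the clones and fell with stimulation in each genotype, Ebf3 lay lower in the clones with no response past the test, and Ebf1 lay lower in uninduced clones, under the fold threshold, with no difference from WT past the test in stimulated cells. Ebf2 and Ebf3 were DEGs below WT in both uninduced clones, 2 of the 9 tested members in clone 1 and, with Cebpa, 3 in clone 2, where 15.1% of all genes were DEGs in either comparison. No member was called above WT in uninduced cells by edgeR, where 6.32% of all genes in clone 1 and 5.54% in clone 2 were, and DESeq2 called as many members in all (2 and 3). At an unadjusted p below 0.05 all 9 tested members differed from WT in clone 1 and 8 in clone 2, as 58.0% and 57.8% of all genes did.

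Ebf1, at chr11:44617317-45008091, encodes a factor that acts upstream of Cebpa and Pparg in fat cell formation. WT libraries held 306, 304 and 288 CPM uninduced and 91.9, 96.7 and 93.2 CPM stimulated. Clone 1 libraries held 185, 197 and 183 CPM uninduced and 85.9, 102 and 102 CPM stimulated, and clone 2 libraries 161, 158 and 169 CPM uninduced and 83.2, 86.6 and 91.3 CPM stimulated. The 3 uninduced groups did not overlap, with WT highest and the clones close to each other (-0.21 ± 0.0560 for clone 2 against clone 1). The stimulated clone 1 and WT groups overlapped. Ebf1 fell in WT by 1.67 on the log2 scale (SE 0.0576, adjusted p = 9.06e-21), while the responses were -0.96 ± 0.0572 in clone 1 and -0.90 ± 0.0581 in clone 2, under the fold threshold. The response difference was 0.71 ± 0.0802 in clone 1 and 0.77 ± 0.0809 in clone 2 (adjusted p = 2.67e-08 and 7.08e-09). Uninduced clones differed from WT by -0.67 ± 0.0557 and -0.88 ± 0.0558, and stimulated clones by 0.04 ± 0.0578 and -0.11 ± 0.0588.

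Ebf2, at chr14:67233292-67430918, encodes a marker factor of brown and beige precursors and was scarce. Counts were 65, 103 and 98 in uninduced WT and 40, 35 and 23 in stimulated WT libraries. They were 14, 9 and 10 and then 3, 3 and 6 in clone 1, and 30, 8 and 9 and then 2, 0 and 0 in clone 2. As CPM, each WT library lay above each clone library of the same treatment. Per library depth, WT held 7.42 times (95% exact interval of counts 5.15 to 11.0) the Ebf2 of clone 1 and 7.67 times (5.61 to 10.7) that of clone 2 uninduced, and 8.42 times (4.61 to 16.9) and 37.1 times (9.99 to 310.5) stimulated. The last ratio rests on 2 counts over 3 libraries, and these intervals cover counting error only. The model gave -2.89 ± 0.428 and -3.00 ± 0.418 uninduced and -3.03 ± 0.512 and -5.04 ± 0.704 stimulated for clone 1 and clone 2 (adjusted p from 4.21e-07 to 8.09e-06), each a DEG.

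Ebf2 also fell with stimulation, by 1.52 in WT (SE 0.382, adjusted p = 0.00105), by 1.66 in clone 1 (SE 0.569, adjusted p = 0.0149) and by 3.55 in clone 2 (SE 0.791, adjusted p = 0.000329) on the log2 scale. The clone 1 call was lost without its first uninduced library (-1.46, adjusted p = 0.0613) or its second stimulated library (-1.35, adjusted p = 0.0789). A difference in response was not detectable at these counts for clone 1 (-0.14 ± 0.587) or clone 2 (-2.03 ± 0.941, adjusted p = 0.105). The clone 2 difference was -5.04 (adjusted p = 0.0223) without the first stimulated clone 2 library, the 1 library of its group with an Ebf2 count, and in the same case the difference between the stimulated clones went from -2.01 to -5.01 (adjusted p = 0.0175).

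Ebf3, at chr7:137193673-137314445, encodes the remaining family member measured. WT libraries held 61.3, 47.1 and 52.0 CPM uninduced and 49.0, 47.2 and 44.1 CPM stimulated, and all 12 clone libraries lay between 20.7 and 27.6 CPM. Every WT library was above every clone library. Uninduced, Ebf3 fell below WT by 1.10 in clone 1 (SE 0.0882, adjusted p = 7.93e-12) and by 1.19 in clone 2 (SE 0.0872, adjusted p = 1.08e-12) on the log2 scale, and the clone 1 value was -0.9961 and no longer past the threshold without the first uninduced WT library. Stimulated, the differences were -0.80 ± 0.0868 in clone 1, under the threshold, and -1.17 ± 0.0906 in clone 2, a DEG. Ebf3 did not respond to stimulation past either threshold in WT (-0.19 ± 0.0843, adjusted p = 0.0501), clone 1 (0.11 ± 0.0901) or clone 2 (-0.17 ± 0.0926).

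Per kb, Ebf1 made up 82.7% ± 1.39 of the EBF sum in uninduced WT and 64.6% ± 1.65 in stimulated WT, 87.4% ± 1.24 and 77.0% ± 1.24 in clone 1, and 86.4% ± 0.703 and 79.7% ± 0.686 in clone 2. The sum itself went from 37.1 ± 1.46 to 14.9 ± 0.396 CPM per kb in WT, from 22.1 ± 0.695 to 12.8 ± 1.02 in clone 1 and from 19.3 ± 0.555 to 11.2 ± 0.425 in clone 2. The 3 genotypes were thus closer to each other after stimulation than before it on this scale.

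Of the zinc finger genes, Zfp423 fell with stimulation in every genotype and Zfp521 was a DEG in no comparison. Zfp423, at chr8:87661810-87959595, encodes a factor of preadipocyte commitment. WT libraries held 24.1, 21.0 and 24.3 CPM uninduced and 9.98, 11.4 and 10.0 CPM stimulated. Clone 1 libraries held 10.7, 13.1 and 11.2 and then 3.67, 3.98 and 4.46 CPM, and clone 2 libraries 21.5, 22.3 and 20.2 and then 7.84, 8.37 and 4.99 CPM. Uninduced WT and clone 2 overlapped, and clone 1 lay lower in both treatments.

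Zfp423 fell by 1.14 in WT (SE 0.131), by 1.52 in clone 1 (SE 0.151) and by 1.59 in clone 2 (SE 0.140) on the log2 scale (adjusted p = 9.64e-09, 6.01e-10 and 4.21e-11). The responses of the clones did not differ from that of WT past the test (-0.38 ± 0.200 and -0.45 ± 0.192, adjusted p = 0.153 and 0.0724). Against WT, clone 1 was at -0.99 ± 0.131 uninduced, just under the fold threshold, and at -1.37 ± 0.151 stimulated, a DEG (adjusted p = 4.2e-09). The uninduced value was -1.05 without the second uninduced WT library and -1.08 without the second uninduced clone 1 library. Clone 2 was at -0.12 ± 0.124 and -0.57 ± 0.146.

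Zfp521, on chromosome 18, encodes the antagonist of ZFP423 and of EBF1. WT libraries held 90.7, 86.1 and 99.0 CPM uninduced and 75.4, 85.3 and 78.6 CPM stimulated, clone 1 libraries 130.2, 144 and 141 and then 101, 122 and 114 CPM, and clone 2 libraries 185, 176 and 191 and then 138, 128 and 119 CPM. All clone libraries lay above all WT libraries. Uninduced, clone 2 was at the fold threshold (0.9984 ± 0.0674, adjusted p = 2.84e-13, not past it) and clone 1 at 0.59 ± 0.0679, and stimulated the values were 0.69 ± 0.0686 and 0.49 ± 0.0682. The clone 2 value was 1.06 without the third uninduced WT library and 1.03 without the second uninduced clone 2 library, both past the threshold.

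Set against each other per kb, Zfp521 stood at 3.63 ± 0.167 times Zfp423 in uninduced WT and 6.95 ± 0.191 times in stimulated WT. The ratio was 10.9 ± 0.747 and 25.4 ± 2.36 in clone 1, and 7.89 ± 0.704 and 17.2 ± 4.04 in clone 2. All clone libraries had a higher ratio than the WT libraries of the same treatment, and within each genotype stimulated libraries had a higher ratio than uninduced ones.

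**Figure D4:**
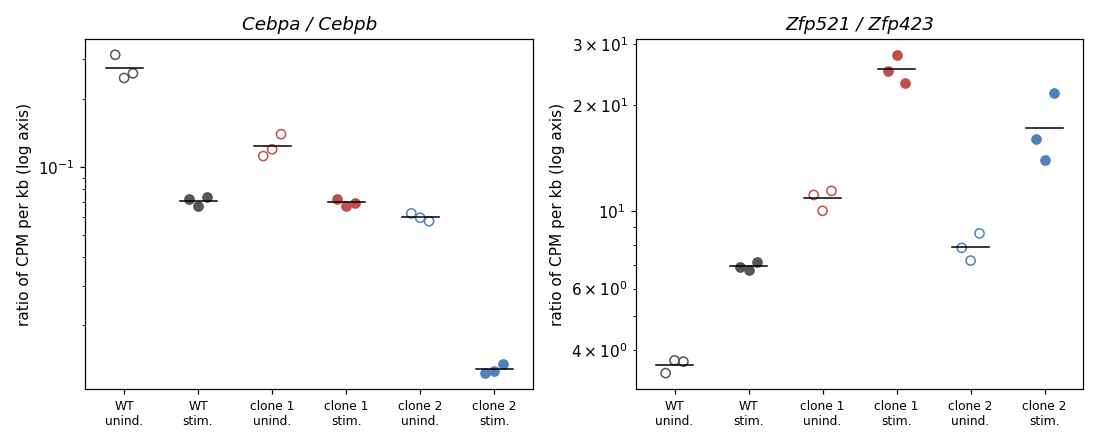
Ratio of Cebpa to Cebpb (left) and of Zfp521 to Zfp423 (right) within each library, from CPM per kb, on log axes. Circles are libraries (open for uninduced, filled for stimulated, grey for WT, red for clone 1, blue for clone 2) and lines are group means. Cebpa to Cebpb is lowest in stimulated clone 2 at 0.0128, and Zfp521 to Zfp423 is highest in stimulated clone 1 at 25.4.

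Prdm16, at chr4:154316125-154636873, encodes a zinc finger factor that directs the brown fat programme. It had 15, 0 and 8 counts in uninduced WT and 0, 0 and 5 in stimulated WT libraries, and 0 in all 12 clone libraries. Uninduced WT thus exceeded clone 1 at least 7.05-fold and clone 2 at least 10.4-fold when an absent group is given a floor of 3 counts over its 3 libraries, and 1 of 3 uninduced WT libraries was itself at 0. In stimulated cells the 5 WT counts all came from 1 library, and no difference was detectable at this depth.

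Per kb, the order of the 10 genes differed between groups below Cebpb and Cebpd. In uninduced WT libraries Cebpd (34.6 CPM per kb) and Cebpa (33.1) overlapped, followed by Ebf1 (30.7), Zfp521 (14.9), Cebpg (10.5), Ebf3 (5.79), Zfp423 (4.12) and Ebf2 (0.622). In stimulated clone 1 Cebpa came next after Cebpd at 44.8 CPM per kb, ahead of Cebpg (21.2) and Zfp521 (18.3), which overlapped. In stimulated clone 2 Zfp521 came next after Cebpd at 20.9, ahead of Cebpg (12.8), and Cebpa (9.09) overlapped Ebf1 (8.92). Zfp423 was the lowest of the genes above 1 CPM per kb in stimulated WT (1.87) and clone 2 (1.26), and it was below that in stimulated clone 1 (0.720).

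Most other proadipogenic regulators of the relay responded differently in the clones and in WT. All 10 such genes on the list were tested, 6 fell in WT, and the response exceeded that of WT as a DEG for 8 in clone 1 and 7 in clone 2 (median difference 1.57 and 1.67, against -0.01 over all genes in each). Of all genes, 5.34% and 4.89% were DEGs in that direction. In stimulated cells 7 were higher and 1 lower in clone 1 (9.42% and 9.60% of all genes) and 4 were higher and 1 lower in clone 2 (7.95% and 8.94%). The lower gene in both clones was Zfp467, which passed the filter on low counts through the WT libraries. A high level in WT was thus a condition of its being tested, and its calls below WT add nothing to its levels. Pparg, the nuclear receptor partner of Cebpa, held 51.0, 49.2 and 48.1 CPM in uninduced and 4.60, 4.02 and 3.92 CPM in stimulated WT libraries. Stimulated clone 1 libraries held 35.6, 36.2 and 33.3 CPM and stimulated clone 2 libraries 20.8, 22.0 and 17.4 CPM, all above stimulated WT. Uninduced levels were 37.2 ± 3.48 CPM in clone 1 and 38.3 ± 1.76 in clone 2, so the mean of neither clone went up with stimulation. The Pparg response was not a DEG in either clone. Pparg was thus higher in stimulated clone 2 (2.26 ± 0.112, adjusted p = 7.49e-17), where Cebpa was at -0.99, and in clone 1 (3.07 ± 0.107, adjusted p = 1.22e-20).

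Stat5a, a transcription factor gene downstream of growth hormone and prolactin receptors, was higher in stimulated cells by 2.77 in clone 1 and 2.12 in clone 2 on the log2 scale (adjusted p = 2.83e-24 and 2.44e-21). Nr3c1, which encodes the glucocorticoid receptor that dexamethasone binds, was higher there by 1.67 and 1.58 (adjusted p = 4.47e-20 and 2.59e-19). Nr3c1 levels were 40.9 ± 0.993 CPM in stimulated WT, 130.0 ± 7.19 in clone 1 and 122 ± 10.0 in clone 2. Zfp467, a zinc finger cofactor known to favour fat over bone formation, moved the other way. It had 219 counts over the 3 uninduced WT libraries, 6 in uninduced clone 1 and none in the other 3 clone groups.

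**Figure D5:**
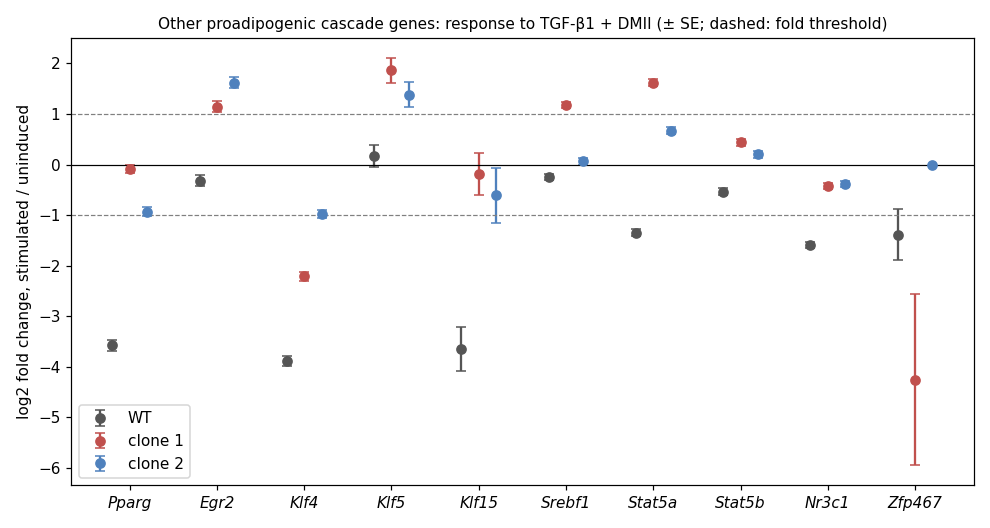
Response of the 10 other proadipogenic cascade genes as log2 fold change of stimulated over uninduced cells, with SE bars, in WT (grey), clone 1 (red) and clone 2 (blue), and the fold threshold dashed at 1 and -1. WT values lie below 0 for genes such as Pparg (-3.57) and Stat5a (-1.35), and the clone values lie above the WT value for each gene but Zfp467, whose values with groups at 0 counts depend on the prior count.

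Of 8 partners and regulators of C/EBP proteins 7 were tested. In stimulated cells 1 of the 7 was a DEG in clone 1 and 2 were in clone 2, where 19.0% and 16.9% of all genes were. Trib2 was the 1 DEG in stimulated cells of both clones. Trib2 encodes a pseudokinase known to promote degradation of C/EBPα, and it held 110.4 ± 5.45 CPM in stimulated WT, 264 ± 19.5 in clone 1 and 423 ± 12.5 in clone 2 (log2 fold change 1.26 and 1.94, adjusted p = 8.31e-18 and 3.23e-22). Ddit3, which encodes the C/EBP inhibitor CHOP, was chosen after its values were seen as the other DEG of stimulated clone 2, at 2.22 there and 2.20 uninduced, against 0.42 and 0.45 in clone 1 under the fold threshold. In uninduced clone 2, Atf4 (1.10, adjusted p = 1.96e-17) and Atf5 (1.15, adjusted p = 8.66e-18), which encode bZIP factors that can pair with C/EBP proteins, were DEGs as well. Of 8 antiadipogenic genes all were tested. In stimulated cells 1 was higher and 2 lower in clone 1 (9.42% and 9.60% of all genes), and 2 were lower in clone 2 (8.94%). Gata3, named after its values were seen, was the higher one in clone 1, at 1.58 ± 0.363 CPM against 0.573 ± 0.140 in WT. Dlk1 and Gata2 were lower in both clones, uninduced and stimulated, and Gata3 was lower in uninduced clone 2. Dlk1 passed the filter on low counts through the WT libraries. A high level in WT was thus a condition of its being tested, and its calls below WT add nothing to its levels. Stimulated Gata2 was at 43.6 ± 2.52 CPM in WT, 17.4 ± 0.717 in clone 1 and 4.41 ± 0.203 in clone 2. Dlk1 had 56 counts over stimulated WT libraries, none in clone 1 and 7 in clone 2.

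Of 7 genes of commitment signals 5 were tested, and none was a DEG against WT in stimulated cells of either clone by edgeR or DESeq2 (4 had an unadjusted p below 0.05 in clone 1 and 3 in clone 2, with smaller folds, as did 62.5% and 59.7% of all genes at that p). Wisp2, a secreted WNT-pathway protein gene named after its values were seen, was a DEG elsewhere: it was lower in uninduced clone 2 (-2.76 ± 0.0712), and its response exceeded that of WT 2.28-fold in clone 1 and 4.29-fold in clone 2 (adjusted p = 3.1e-23, 5.58e-12 and 8.38e-17). Of 9 PRDM16 partners and beige genes 6 were tested. Against WT, 15.1% of all genes were DEGs in each uninduced clone, and 19.0% and 16.9% in stimulated clone 1 and clone 2. Ppargc1a, named after its values were seen, was the 1 DEG of this list against WT within either treatment. It passed the filter on low counts through the uninduced clones. It encodes the coactivator PGC-1α and was higher in clone 1 both uninduced and stimulated and in clone 2 uninduced, with 17 counts over uninduced WT libraries against 423 in clone 1 and 524 in clone 2. Of the 9 adipocyte markers 6 were tested. In stimulated cells 5 were higher and 1 lower in clone 1 (9.42% and 9.60% of all genes), and 2 were higher in clone 2 (7.95%). Plin1 and Fabp4 were higher in stimulated cells of both clones. Adipoq, Cd36 and Cidec were also higher in stimulated clone 1, whereas Lpl was lower there (-4.23 ± 0.349, adjusted p = 1.04e-11). Cd36, Cidec and Plin1 passed the filter on low counts through the stimulated clone 1 libraries. A high level there was thus a condition of their being tested, and their calls there add nothing to their levels. The Adipoq call rests on 15 counts over stimulated clone 1 libraries against 0 in stimulated WT. In the clone 2 response Adipoq fell by 2.94 on the log2 scale (SE 0.890, adjusted p = 0.00621). Adipoq would not have passed the filter without the uninduced clone 2 libraries, so a high level there was a condition of that call, which adds nothing to the levels. Fabp4 stood at 0.631 ± 0.377 CPM in stimulated WT, 20.4 ± 4.37 in clone 1 and 3.16 ± 0.945 in clone 2, and Plin1 had 0, 538 and 31 counts over the same groups.

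The genes with the pattern most like each tested member were sought among the 10059 genes whose mean reached 5 CPM, by Pearson r of log2 CPM over the 18 libraries. The libraries share genotype, treatment and scaling, so these values describe likeness. Cebpb was most like Sod3 and Cebpd (r = 0.992 for both), and Cebpd was most like Lbp and Gng12 (r = 0.993 for both). Cebpa was most like Cyb5a (r = 0.952) and Tmem205 (r = 0.920), and Cebpg like Ghdc (r = 0.972) and Ehd3 (r = 0.962). Ebf1 paired with Pnkd (r = 0.974) and Dyrk1b (r = 0.971), Ebf2 with Pde5a (r = 0.981) and Cand2 (r = 0.972), and Ebf3 with Gas6 (r = 0.977) and Fzd3 (r = 0.969). Zfp423 was closest to Pitrm1 (r = 0.971) and Enah (r = 0.969), and Zfp521 to Apc (r = 0.971), which is also on chromosome 18, and Lamb3 (r = 0.969).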

How the data were processed

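Poly(A) RNA from the 18 libraries was sequenced and mapped by the authors to mm10 (GRCm38) with HISAT2, per the submitters' processing notes. The values are the raw counts per gene that the authors deposited, and the sources used here give no counting program, annotation release or strand setting. CPM per kb used the gene lengths listed in the same table. For Zfp521 that length was 6152 bases against 7030 exonic bases in GENCODE M21, whereas the lengths of the other members were equal. The rank of Zfp521 per kb and its ratio to Zfp423 depend on which length is used. The members and gene lists were chosen with earlier results of these data known.

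Differential expression was computed with edgeR 4.0.16 under R 4.3.3, using filterByExpr by group (minimum count 10, leaving 14317 genes of 54532 listed and 25899 with a count), TMM, 1 mean for each of 6 groups, glmQLFit (robust) and glmQLFTest with Benjamini-Hochberg adjustment. DESeq2 1.42.0 was an alternative. Comparisons were stimulated against uninduced cells in each genotype, each clone against WT and the clones against each other in each treatment, and differences in response. Named list genes were those called in both stimulated clones in 1 direction (up to 4 a list) and Pparg, and exceptions are stated. Overlaps came from GENCODE M21, and promoters from RefSeq GRCm38.p6. Ddit3 is listed under 2 IDs, and the one with counts was used.

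Replicates correlated with an r of 0.963 to 0.993 and differed by more than counting error. A floor of 3 counts over a group corresponds to 0.0354 to 0.0603 CPM. The procedure was tested on simulated data.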

Additional observations from a re-analysis of the deposited data

Results flagged for a closer look

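Cebpa responded differently in clone 1 and in WT. The log2 response to TGF-β1 + DMII was -0.88 in WT and 1.03 in clone 1, and the difference in response was 1.91 (SE 0.0902, edgeR adjusted p = 1.14e-16). All 3 stimulated clone 1 libraries lay above, and all 3 stimulated WT libraries below, the uninduced libraries of their genotype.

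Cebpd responded differently in clone 2 and in WT, with a log2 response of 1.07 in WT and 2.18 in clone 2 and a difference of 1.11 (SE 0.0836, edgeR adjusted p = 1.35e-11). It rose in both, and all 3 libraries of each stimulated group lay above the uninduced ones.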

How the results depend on the processing

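Of the values of single members under the alternatives, 1410 of 1456 kept their direction and their side of the threshold, 9 lost it, 16 gained it and 21 changed sign. The number of members called was 5, 5, 4, 2, 3, 6 and 4 in the WT, clone 1 and clone 2 responses, in uninduced clone 1 and clone 2 against WT and in stimulated clone 1 and clone 2 against WT. With no fold threshold it was 8, 8, 7, 9, 8, 8 and 8. In the response difference of clone 1 and clone 2 from WT it went from 1 and 1 to 5 and 6, between the clones from 1 uninduced and 1 stimulated to 5 and 8, and in their response difference from 1 to 3, while 14.5% to 60.7% of all genes passed that rule. With no filter beyond 1 count it went from 3 to 5 in uninduced clone 2 against WT.

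Leaving out 1 library at a time gave 3 to 5 members for the WT response, 3 to 5 for clone 1, 4 for clone 2, 1 to 3 and 3 to 4 for uninduced clone 1 and clone 2 against WT, 6 and 4 to 5 for the stimulated ones, 1 and 1 to 2 for the response differences of clone 1 and clone 2 from WT, and 1 and 1 to 2 between uninduced and stimulated clones. The lowest counts came without uninduced WT replicate 1 (WT response 3, with Cebpb 0.99 and Cebpd 0.98, and uninduced clone 1 against WT 1) and without uninduced clone 1 replicate 1 (clone 1 response 3). Higher counts came in uninduced clone 1 against WT without uninduced WT replicate 2 or uninduced clone 1 replicate 2 (3), in the clone 2 response difference from WT without uninduced WT replicate 1 or stimulated clone 2 replicate 1 (2), and between stimulated clones without the latter (2).

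The following values changed sign. Between uninduced clones Cebpb went from -0.02 to 0.00036 with no filter. Over all alternatives, for these and the genes that follow, Cebpb ranged there from -0.06 to 0.02, Cebpd from -0.01 to 0.07 and Ebf2 from -0.40 to 0.09. Ebf1 ranged from -0.00203 to 0.11 in stimulated clone 1 against WT and from -0.01 to 0.10 in the response difference of the clones, where Zfp423 ranged from -0.21 to 0.13. The response difference from WT ranged from -0.55 to 0.15 for Ebf2 in clone 1 and from -0.09 to 0.10 for Ebf3 in clone 2, the latter being -0.05 both with no filter and with library totals.

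Library totals in place of TMM, an alternative chosen after seeing the data, moved the median of all genes to -0.26, -0.26 and -0.31 in the 3 responses. Cebpb and Cebpd in WT were then 0.84 and 0.85 and Cebpa in clone 1 0.79, under the threshold, while Cebpa in WT was -1.10, Ebf1 in both clones -1.20 and Cebpa in stimulated clone 2 against WT -1.10, past it. The cause was not tested beyond that shift. Cebpg in clone 2 was -0.23, Ebf3 in clone 1 -0.13 and Cebpd between uninduced clones -0.01.

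The replicate numbers did not pair the libraries: same-number deviations correlated at -0.041 to 0.05 over 45 pairs of libraries. With the number as a block all 108 member values kept their side, the WT response counting 5 members as before, and so they did with DESeq2 and with DESeq2 size factors. With only the groups compared in the fit 106 values could be had (Ebf2 was filtered out of the clone 2 response, which left 3 members called there, and of the comparison of stimulated clones), and 1 changed side (Zfp521 in uninduced clone 2 against WT, 1.0039). Depth limits Ebf2 and Prdm16 in the clones, where groups held 0 to 47 counts.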

Other observations

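Genes near Cebpa on chromosome 7 had unlike levels in the clones. Within 250 kb of Cebpg and Cebpa 8 genes were tested. Lrp3, a lipoprotein receptor family gene that starts 3' of Cebpa at chr7:35200027-35215498, had 167, 334 and 353 counts in uninduced WT libraries, 744, 374 and 266 in uninduced clone 2 libraries and 0 in all 6 clone 1 libraries. Chst8, a sulfotransferase gene at chr7:34674468-34812711, had 1051 counts over uninduced WT libraries, 7 over uninduced clone 1 and 0 over both clone 2 groups. Pepd, the gene beside Cebpg, held 51.2 ± 4.29 CPM in uninduced WT, 54.1 ± 2.13 in clone 1 and 55.8 ± 0.538 in clone 2 (SD, n = 3). These genes were chosen for their position, and Lrp3 and Chst8 were singled out after their values were seen.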
